A study of Mus musculus with 6 samples.

Results

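The Egr, Nr4a and Ier genes with Srf, 10 genes in all, were followed in kidney endothelial cells (ECs) of CTRL mice and of mice with an induced endothelial deletion of Rbpj by their labels (RbpjΔEC). The members were the rows of the deposited count table that carry these gene names, 10 of 55401 listed genes. All mice carried floxed Rbpj alleles (Rbpjf/f). The 3 RbpjΔEC mice (Cre +/-) also carried the Cdh5CreERT2 transgene, in which the endothelial Cdh5 promoter drives a tamoxifen-inducible Cre, and the 3 CTRL mice were their Cre-negative littermates (Cre -/-). Both groups received 5 intraperitoneal injections of 1.5 mg tamoxifen at 8 weeks of age, and kidneys were taken 12 weeks later, at a labelled age of 21 weeks. Each library is the RNA of CD31+ CD45- cells of 1 male mouse, which were dissociated from kidney, enriched on magnetic columns and sorted by flow cytometry before lysis.

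Immediate-early genes are transcribed within minutes of a stimulus, without the need for new protein synthesis. Many of their promoters are held by SRF, a transcription factor that binds CArG boxes and responds to ERK signaling through its TCF cofactors and to actin dynamics through its MRTF cofactors. Others respond to cAMP and calcium through CREB at the cAMP response element (CRE). Egr proteins are zinc-finger transcription factors, Nr4a proteins are orphan nuclear receptors without a known classical ligand, and Ier2, Ier3 and Ier5 encode small regulators of growth, survival and the stress response. In ECs these genes are known to respond to growth factors, shear stress and inflammatory mediators, and tissue dissociation is also known to induce them.

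RefSeq start sites (GRCm38.p6) were at hand for 7 of the 10 genes (Egr2, Ier3, Ier5, Nr4a1, Nr4a2, Nr4a3 and Srf), and the 250 bases before each start site were searched on both strands. None was at hand for Egr1, Egr3 and Ier2, the genes that passed the edgeR threshold below, so their promoters are not described. The Srf and Nr4a sequences are shown because they held motif numbers that few windows hold. The RefSeq start of Nr4a1 lies inside its annotated span. Each is written 5′ to 3′ on the strand of its gene and is cut where an annotated exon begins, with matches (a description of letters, not of binding) to the CArG box and to the CRE half-site TGACG (or its complement CGTCA) in capitals.
Srf (chr17:46556176-46556412, minus strand): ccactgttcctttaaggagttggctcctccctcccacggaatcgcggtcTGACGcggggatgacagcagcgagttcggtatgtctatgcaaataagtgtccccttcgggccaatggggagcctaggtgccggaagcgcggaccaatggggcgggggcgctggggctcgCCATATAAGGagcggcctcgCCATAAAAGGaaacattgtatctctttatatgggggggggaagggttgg
Nr4a1 (chr15:101266596-101266845, plus strand): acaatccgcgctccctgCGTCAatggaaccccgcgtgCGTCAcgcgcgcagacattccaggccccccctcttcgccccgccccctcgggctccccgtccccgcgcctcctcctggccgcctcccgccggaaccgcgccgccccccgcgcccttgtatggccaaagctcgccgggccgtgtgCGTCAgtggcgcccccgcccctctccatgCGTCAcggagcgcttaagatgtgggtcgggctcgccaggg
Nr4a2 (chr2:57124004-57124253, minus strand): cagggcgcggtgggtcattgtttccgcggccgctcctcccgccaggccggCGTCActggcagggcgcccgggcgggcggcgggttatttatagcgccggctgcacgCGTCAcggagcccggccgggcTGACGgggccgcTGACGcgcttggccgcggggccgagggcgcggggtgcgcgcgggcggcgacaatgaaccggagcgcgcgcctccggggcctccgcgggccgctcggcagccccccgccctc
Nr4a3 (chr4:48045055-48045152, plus strand): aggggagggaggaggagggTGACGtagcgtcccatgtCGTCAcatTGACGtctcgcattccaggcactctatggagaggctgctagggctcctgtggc
The Srf window held 2 CArG boxes, from 82 to 73 and from 62 to 53 bases before the start site. Among 32817 windows of this length at mouse start sites, 1.47% held a CArG box and 0.0183% held 2 or more. The Nr4a1, Nr4a2 and Nr4a3 windows held no CArG box and 4 TGACG matches each, 1 of those of Nr4a3 lying in an exon and therefore not printed. At least 1 TGACG was in 17.7% of the windows and 4 or more were in 0.137%. The full CRE palindrome TGACGTCA, which contains TGACG and was present in 1.55% of windows, had no match in any window of the 7 genes, and neither did AAAGGTCA, the element bound by Nr4a monomers, which 1.34% of windows held. The Egr binding element GCGNGGGCG had 1 match each in the Nr4a1, Nr4a2 and Srf windows, against 4.70% of all windows. The windows of Ier3 and Ier5 had no match to any of these motifs. Egr2 had 5 listed start sites, 4 of whose windows held 1 CArG box. Of these 4 windows 3 overlap and hold the same box, each with 2 TGACG matches, a number that 3.90% of all windows reach. TGACG thus had a match in 5 of the 7 genes, Srf and Egr2 included.

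**Figure D1:**
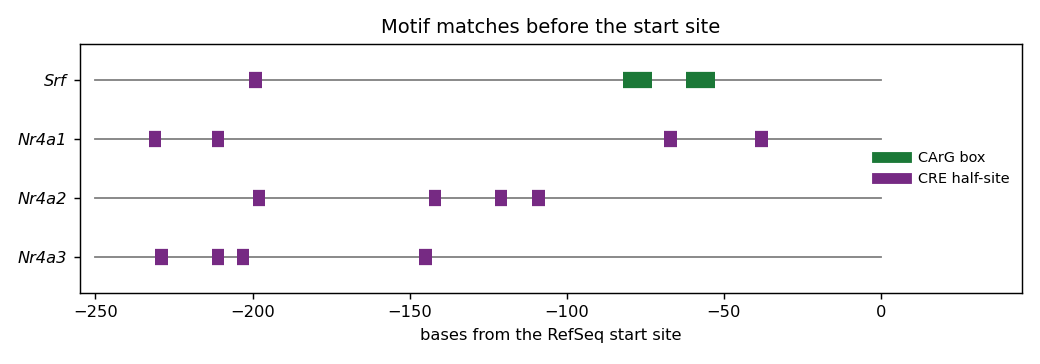
Positions of the matches in the 250 bases before the start site of Srf, Nr4a1, Nr4a2 and Nr4a3; the horizontal axis is the distance in bases from the RefSeq start site, each grey line is 1 searched window, green bars are CArG boxes and purple bars are TGACG half-sites. Srf has 2 CArG boxes and 1 half-site, and each Nr4a gene has 4 half-sites and no CArG box.

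Total counts on genes were between 39649171 and 47726850 per library, so that a count of 3 lay between 0.0633 and 0.0748 CPM, the counts scaled to library size and TMM factor. CTRL 1 stood apart in that 33764 genes had a count there, while 25629 to 26785 did in the other 5 libraries. Of the 14 pan-endothelial markers all were tested and none was at 0, and their summed level was 27287 to 30104 CPM in CTRL and 24930 to 25106 CPM in RbpjΔEC. Of these markers 10 had a negative log2 fold change, with 0 calls by edgeR (5 lower and 1 higher where the unadjusted p was under 0.05) and 5 lower by DESeq2, and their part in the results below was not tested. In bulk RNA, fewer cells of a type and less RNA per cell cannot be told apart. The reads on Rbpj, which cover the whole gene and not the floxed part alone, had a CTRL mean of 29.2 ± 0.963 and an RbpjΔEC mean of 28.2 ± 1.86 CPM (SD, n = 3 each), so the genotype of a library rests on its label. The Notch target Hey1 had means of 19.7 ± 2.93 and 11.6 ± 2.83 CPM (SD, n = 3 each) in these groups, without overlap (adjusted p = 0.0722 with edgeR, 0.00158 with DESeq2). The p-values below measure the spread between mice, 3 in each group.

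To ask whether the immediate-early regulators differ between ECs labelled CTRL and RbpjΔEC, each gene was compared between the groups with edgeR's quasi-likelihood test. Egr1, Egr3 and Ier2 rose in RbpjΔEC ECs, by 1.58-fold, 1.99-fold and 1.32-fold. Of the 10 genes 9 were tested, all 9 with a positive log2 fold change (median 0.40, against 0.01 over all 18438 tested genes, 51.1% of which were positive), and these 3 passed an adjusted p of 0.05. In the same comparison 0.575% of all tested genes passed as higher and 0.559% as lower, 1.13% in all. In 7 of the 9 every RbpjΔEC library lay above every CTRL library, as was the case for 11.4% of all tested genes. The exceptions were Nr4a1 and Nr4a3. Since the 10 genes were chosen with earlier results of these data known, their counts are a description. DESeq2's Wald test called those 7 genes higher, where 2.35% of all tested genes were called higher by that test. The number of calls depended on single mice: it was 1 without CTRL 1, 4 without CTRL 2, 1 without RbpjΔEC 1, 1 without RbpjΔEC 2 and 6 without RbpjΔEC 3. Without CTRL 3 edgeR called 0, with 7 at an unadjusted p under 0.05. Over all genes the calls, 209 with every library, moved in the same fits, to 54 without CTRL 1, 700 without CTRL 2, 24 without CTRL 3, 21 without RbpjΔEC 1, 48 without RbpjΔEC 2 and 521 without RbpjΔEC 3. At an unadjusted p under 0.05 the full comparison held 7 of the genes, against 8.88% of all tested genes as higher.

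**Figure D2:**
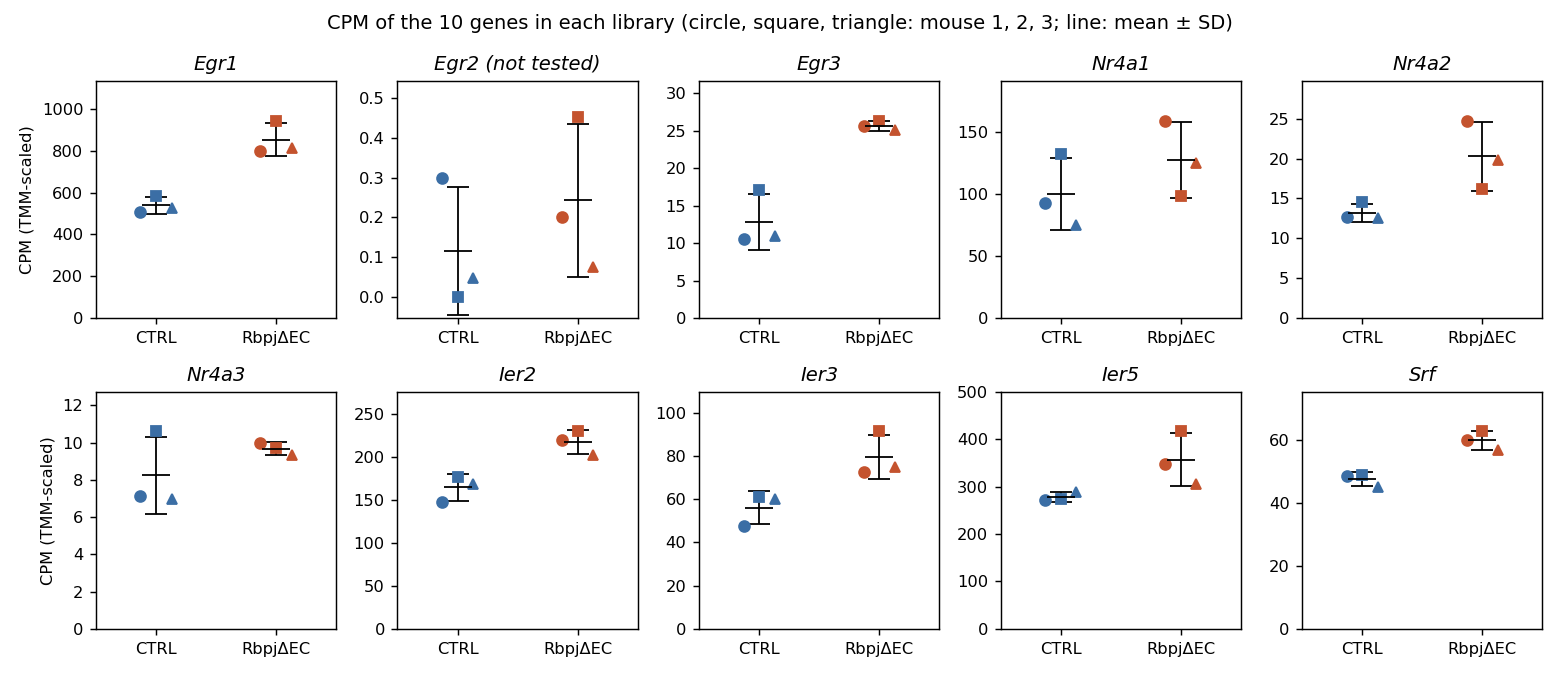
CPM (vertical axes, starting at 0 or below where an error bar reaches under 0) of the 10 genes in the 3 CTRL (blue) and 3 RbpjΔEC (red) libraries; symbols mark mice 1 to 3 of each group and black lines the mean ± SD. The groups are separate for Egr1, Egr3, Nr4a2, Ier2, Ier3, Ier5 and Srf and overlap for Nr4a1, Nr4a3 and Egr2.

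Egr1 (ENSMUSG00000038418.7, chromosome 18), the best known Egr factor in vascular cells, had 505, 584 and 527 CPM in CTRL 1 to 3 and 801, 944 and 814 CPM in RbpjΔEC 1 to 3. The lowest RbpjΔEC library was 217 CPM above the highest CTRL library. The means were 539 ± 40.7 CPM (SD, n = 3) and 853 ± 79.2 CPM (SD, n = 3), a log2 fold change of 0.66 (standard error 0.0867, 95% interval 0.47 to 0.85, adjusted p = 0.00650, edgeR with the Benjamini-Hochberg method). Egr1 passed with each library left out in turn except CTRL 3 (adjusted p = 0.0597, edgeR).
Egr3 (ENSMUSG00000033730.4, chromosome 14 of GRCm38 from 70077203 to 70082614), itself a target of immediate-early factors in many cells, had 10.5, 17.1 and 11.0 CPM in CTRL 1 to 3 and 25.6, 26.3 and 25.03 CPM in RbpjΔEC 1 to 3. The CTRL libraries differed among themselves by 1.63-fold, with CTRL 2 above the others, while the RbpjΔEC libraries differed by 1.05-fold. Egr3 had a log2 fold change of 1.00 (standard error 0.170, 95% interval 0.61 to 1.38, adjusted p = 0.0326, edgeR), the largest of the 9 tested genes. Leaving out CTRL 1, CTRL 3, RbpjΔEC 1 or RbpjΔEC 2 ended the call of Egr3 (highest adjusted p 0.132, edgeR).
Egr2 (ENSMUSG00000037868.15), known for its part in myelination and lymphocyte tolerance, was near the floor and below the filter on low counts. It had 12, 0 and 2 counts in CTRL 1 to 3 and 9, 19 and 3 counts in RbpjΔEC 1 to 3. The groups overlapped. In the fits where Egr2 passed the filter (without CTRL 2, CTRL 3, RbpjΔEC 1 or RbpjΔEC 3) or no filter was set, it was not called.
Srf (ENSMUSG00000015605.6, chromosome 17 from 46548329 to 46556175), whose 2 CArG boxes are shown above, had 48.7, 48.9 and 44.9 CPM in CTRL 1 to 3 and 60.1, 62.7 and 56.8 CPM in RbpjΔEC 1 to 3. The groups were separated by 7.87 CPM, and the libraries within a group were close to each other. For Srf the log2 fold change of 0.33 (standard error 0.0757, 95% interval 0.17 to 0.50) did not pass (adjusted p = 0.0600 with edgeR, 0.0127 with DESeq2). In GENCODE M21 a noncoding gene on the opposite strand, Gm26904, spans Srf, and it is not analysed here. Since the strand setting of the authors' counting is not given in the sources used here, reads of that gene may be included.

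The Ier genes were higher in every RbpjΔEC library, with Ier2 past the threshold. Ier2 (ENSMUSG00000053560.5, chromosome 8 from 84661331 to 84662852), a nuclear regulator of the growth factor response, had 147, 177 and 169 CPM in CTRL 1 to 3 and 219.6, 230.0 and 202 CPM in RbpjΔEC 1 to 3. Ier2 thus rose by 0.40 on the log2 scale (standard error 0.0825, 95% interval 0.22 to 0.58, adjusted p = 0.0444, edgeR). This call was lost without CTRL 1, CTRL 3, RbpjΔEC 1 or RbpjΔEC 2 (highest adjusted p 0.180, edgeR) and with a non-robust fit (0.0601).
Ier3 (ENSMUSG00000003541.6, chromosome 17 from 35821684 to 35822923), a regulator of apoptosis and ERK signaling, had 47.4, 60.9 and 60.1 CPM in CTRL 1 to 3 and 72.8, 91.4 and 74.8 CPM in RbpjΔEC 1 to 3. CTRL 1 was low in its group and RbpjΔEC 2 high in its group. For Ier3 the log2 fold change of 0.50 (95% interval 0.25 to 0.76) did not pass (adjusted p = 0.0684 with edgeR, 0.00337 with DESeq2).
Ier5 (ENSMUSG00000056708.5, chromosome 1 from 155096361 to 155099636), a regulator of the heat shock response, had 271, 273 and 289.7 CPM in CTRL 1 to 3 and 348, 417 and 306 CPM in RbpjΔEC 1 to 3. The CTRL libraries differed by 1.07-fold and the RbpjΔEC libraries by 1.36-fold. For Ier5 the log2 fold change was 0.36 (95% interval 0.14 to 0.58, adjusted p = 0.105 with edgeR, 0.0281 with DESeq2). The value for Ier5 was 0.23 without RbpjΔEC 2 (adjusted p = 0.228, edgeR) and 0.46 without RbpjΔEC 3, where it passed (adjusted p = 0.0174, edgeR).

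None of the Nr4a genes passed the threshold of the edgeR test (0 of 3, with 1 at an unadjusted p under 0.05 and 1 called by DESeq2, in both cases Nr4a2). Nr4a1 (ENSMUSG00000023034.7, chromosome 15 from 101254269 to 101274795), also known as Nur77, had 93.0, 132 and 75.4 CPM in CTRL 1 to 3 and 159, 98.0 and 125 CPM in RbpjΔEC 1 to 3. CTRL 2 exceeded 2 of the 3 RbpjΔEC libraries. For Nr4a1 the log2 fold change of 0.35 had a 95% interval from -0.36 to 1.06 (adjusted p = 0.582, edgeR), which holds both no change and a change as large as that of Egr3. The value for Nr4a1 was 0.16 without RbpjΔEC 1 and 0.59 without CTRL 2.
Nr4a2 (ENSMUSG00000026826.13, chromosome 2 from 57106830 to 57124003), also known as Nurr1 and as a factor of dopaminergic neurons, had 12.7, 14.5 and 12.5 CPM in CTRL 1 to 3 and 24.8, 16.2 and 19.8 CPM in RbpjΔEC 1 to 3. All RbpjΔEC libraries were above all CTRL libraries, by at least 1.65 CPM. Nr4a2 had a log2 fold change of 0.61 (standard error 0.147, 95% interval 0.29 to 0.94, adjusted p = 0.0719 with edgeR, 0.00731 with DESeq2).
Nr4a3 (ENSMUSG00000028341.9, chromosome 4 from 48045153 to 48086447), also known as Nor1, had 7.15, 10.6 and 6.95 CPM in CTRL 1 to 3 and 10.01, 9.72 and 9.32 CPM in RbpjΔEC 1 to 3. CTRL 2 was the highest of all 6 libraries. Nr4a3 had a log2 fold change of 0.23 (95% interval -0.14 to 0.60, adjusted p = 0.514, edgeR). Leaving out CTRL 2 gave 0.45 (adjusted p = 0.110, edgeR), and leaving out CTRL 3 gave 0.12 (adjusted p = 0.825, edgeR).

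**Figure D3:**
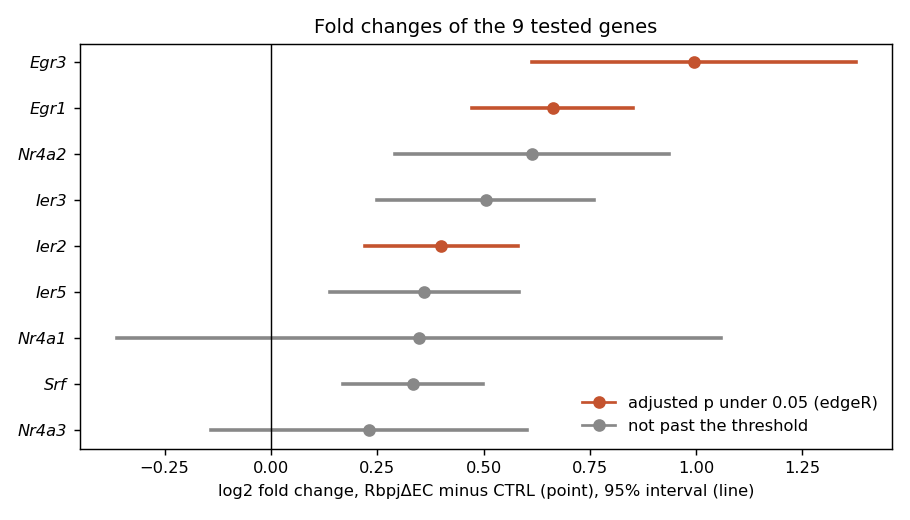
Log2 fold change (RbpjΔEC minus CTRL, horizontal axis) of the 9 tested genes with its 95% interval; red marks an adjusted p under 0.05 in edgeR's test. Egr3, Egr1 and Ier2 are past the threshold, and the intervals of Nr4a1 and Nr4a3 include 0.

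The highest RbpjΔEC mouse was another for the Nr4a genes than for the others. Among the RbpjΔEC libraries, RbpjΔEC 2 was the highest for all 6 tested Egr, Ier and Srf genes, whereas RbpjΔEC 1 was the highest for all 3 Nr4a genes and RbpjΔEC 2 the lowest for Nr4a1 and Nr4a2. For Egr3 and Nr4a3 the RbpjΔEC libraries differed by only 1.05-fold and 1.07-fold from lowest to highest. Which library was the highest for these genes thus rests on a small difference. Relative to the CTRL mean, Egr1 was higher by 0.57, 0.81 and 0.60 on the log2 scale in RbpjΔEC 1 to 3. For Nr4a1 these differences were 0.71, 0.0080 and 0.36. Among the CTRL libraries CTRL 2 was the highest for 8 of the 9 genes, all but Ier5. With group means taken out, the correlation of log2 CPM over the 6 libraries had a median of 0.61 over the 15 pairs of Egr, Ier and Srf genes, 0.75 over the 3 pairs of Nr4a genes and 0.062 over the 18 pairs across these groups. The pairs across ranged from -0.55 (Nr4a2 and Ier5) to 0.98 (Egr3 and Nr4a3), the highest of all 36 pairs, and those among the Egr, Ier and Srf genes went down to 0.017 (Egr3 and Ier5). The points share 6 libraries and 2 group means, so these values are a description.

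**Figure D4:**
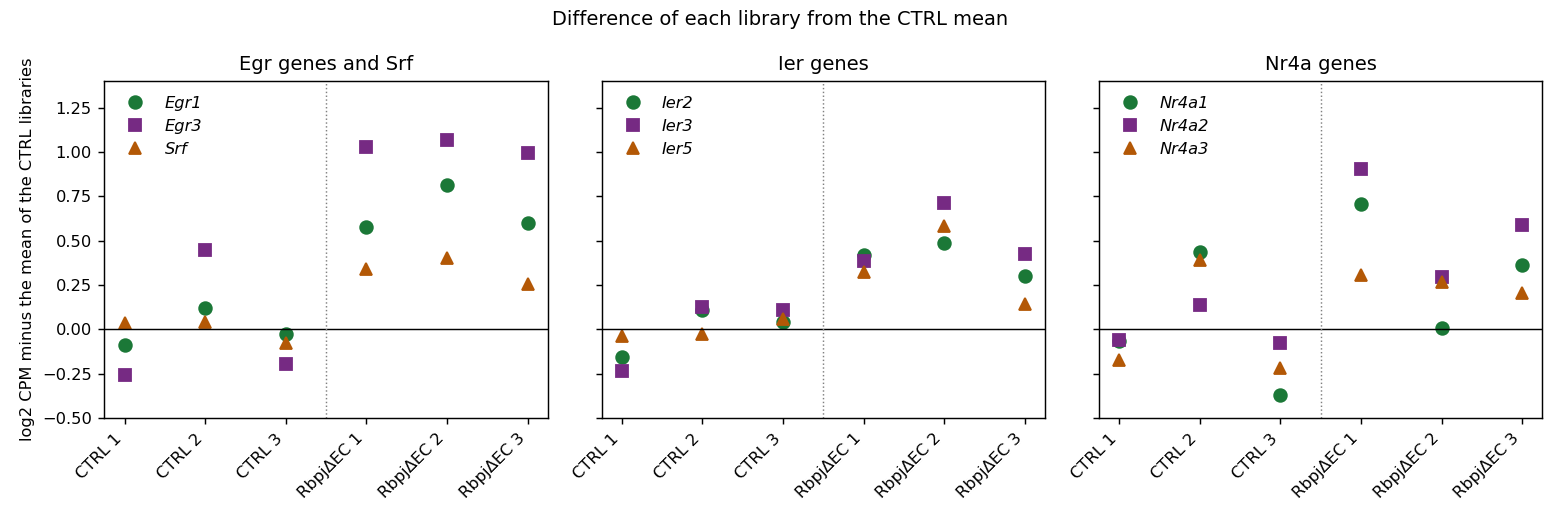
Log2 CPM of each library minus the mean of the 3 CTRL libraries (vertical axis) for the Egr genes and Srf, the Ier genes and the Nr4a genes; the dotted line separates CTRL from RbpjΔEC. RbpjΔEC 2 is the highest RbpjΔEC library in the left and middle panels and RbpjΔEC 1 in the right panel, and CTRL 2 lies above 2 RbpjΔEC libraries for Nr4a1 and above all 3 for Nr4a3.

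Levels were compared between genes as CPM per kilobase of exon. In CTRL the order was Egr1 (120.2 ± 9.07), Ier2 (108 ± 10.1), Ier5 (84.8 ± 3.14), Ier3 (49.6 ± 6.68), Nr4a1 (28.5 ± 8.25), Srf (16.4 ± 0.766), Nr4a2 (3.26 ± 0.279), Egr3 (2.92 ± 0.840) and Nr4a3 (1.38 ± 0.344 CPM per kilobase, SD, n = 3 each), with Egr2 last at 0.034. The libraries of Egr1 and Ier2 overlapped in level, as did those of Nr4a2 and Egr3. In RbpjΔEC Egr1 reached 190.3 ± 17.7 CPM per kilobase (SD, n = 3) and no longer overlapped with Ier2 (143 ± 9.26). Egr3 (5.83 ± 0.149) had a higher mean than Nr4a2 (4.99 ± 1.06), with overlapping libraries. Egr1 alone held 44.1 to 44.3% of the summed CPM of the 10 genes in CTRL and 46.5 to 49.8% in RbpjΔEC. The sum was 1143 to 1318 CPM in CTRL and 1633 to 1896 CPM in RbpjΔEC.

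Of 53 other immediate-early genes, 44 had a positive and 9 a negative log2 fold change (median 0.35), and 9 were called higher and 0 lower by edgeR. Where the unadjusted p was under 0.05 these counts were 30 and 0, and by DESeq2 18 and 0. Over all tested genes the shares called higher were 0.575% by edgeR, 8.88% at an unadjusted p under 0.05 and 2.35% by DESeq2. With the smallest p were Dusp5, a nuclear ERK phosphatase, which rose by 1.01 on the log2 scale (adjusted p = 0.00427, edgeR), and Btg2, an antiproliferative cofactor of mRNA decay, which rose by 0.58 (0.0212). Nfkbiz, which encodes a nuclear IκB protein, rose by 0.88 (0.0234), the interferon-regulated factor Irf1 by 0.44 (0.0246) and the phosphatase subunit Ppp1r15a by 0.46 (0.0324). The number of calls was 2 without CTRL 1, 16 without CTRL 2, 16 without RbpjΔEC 3 and 1 without CTRL 3, RbpjΔEC 1 or RbpjΔEC 2. The fits with 16 calls were those with 700 and 521 calls over all genes, and the others had 21 to 54. The 16 without RbpjΔEC 3 included 1 lower gene. The family members outside the 10 genes were Ier5l, with a CTRL mean of 65.5 ± 4.20 and an RbpjΔEC mean of 85.2 ± 11.6 CPM (SD, n = 3 each, no overlap, adjusted p = 0.0851 with edgeR, 0.0231 with DESeq2), and the SRF-binding Srfbp1, with 18.7 ± 1.15 and 16.7 ± 0.874 CPM (SD, n = 3 each). Egr4 was below the filter.
Among carriers of the route from Ras and ERK to SRF and CREB, 6 of 21 tested genes had a positive and 15 a negative log2 fold change (median -0.05). None was called by edgeR (0 calls, with 0 higher and 4 lower where the unadjusted p was under 0.05, and 3 lower by DESeq2). Mapk3, which encodes ERK1, had a CTRL mean of 170.2 ± 16.1 and an RbpjΔEC mean of 136 ± 1.88 CPM (SD, n = 3 each, log2 fold change -0.32, adjusted p = 0.0664, edgeR), and Rhoa, the GTPase upstream of MRTF, had a log2 fold change of -0.29 (0.0751). A list of cofactors of the Egr and Nr4a proteins, to which the nuclear exportin Xpo1 was added, had 10 tested genes, 2 higher and 8 lower. There were 0 calls by edgeR (1 lower at an unadjusted p under 0.05, 0 by DESeq2). The smallest p were those of the exportin Xpo1 (log2 fold change -0.17, adjusted p = 0.264, edgeR) and the coactivator Ncoa3 (-0.09, 0.599).
Of 12 genes known as Egr1 targets in vascular cells, 6 had a positive and 6 a negative log2 fold change (median -0.03), with 0 calls by edgeR (2 where the unadjusted p was under 0.05, both lower, and 1 by DESeq2). The smallest p were those of the prostaglandin E synthase gene Ptges, with a CTRL mean of 0.625 ± 0.305 and an RbpjΔEC mean of 0.146 ± 0.106 CPM (SD, n = 3 each, adjusted p = 0.134, edgeR), and of the VEGF receptor gene Flt1 (log2 fold change -0.24, adjusted p = 0.137, edgeR). Ptges was near the floor in RbpjΔEC (0.0714 to 0.267 CPM). Flt1 is also one of the 14 pan-endothelial markers, of which 10 had a negative log2 fold change. Of 15 tested cytoskeletal targets of SRF and MRTF, 1 had a positive and 14 a negative log2 fold change (median -0.23), against 0.33 for Srf itself. In 8 of them every RbpjΔEC library lay below every CTRL library, as in 11.6% of all tested genes. Acta2, smooth muscle actin, fell by 1.30 (adjusted p = 0.0369, edgeR), the only call among them (where the unadjusted p was under 0.05, 0 higher and 9 lower, against 8.62% of all tested genes as lower; by DESeq2, 5 lower, against 2.77%). Over these 4 lists and the family members, edgeR called 0 genes without CTRL 1, CTRL 3 or RbpjΔEC 1 (13, 16 and 14 where the unadjusted p was under 0.05), 1 without RbpjΔEC 2 and 4 each without CTRL 2 or RbpjΔEC 3. Acta2 also marks mural cells (vascular smooth muscle and pericytes), and the mural list shares Acta2, Cnn1, Myl9 and Tagln with the cytoskeletal list. The mural list was lower too, with 10 of 10 tested genes lower and 3 of them called by edgeR (Acta2, Myh11 and Rgs5). At an unadjusted p under 0.05 there were 9 lower, by DESeq2 9 lower, and 9 were lower without overlap. None of the list was at 0 in all libraries, and its summed level was 91.7 to 119 CPM in CTRL and 37.1 to 61.7 CPM in RbpjΔEC. The part of these cells in the lower cytoskeletal genes was not tested.

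**Figure D5:**
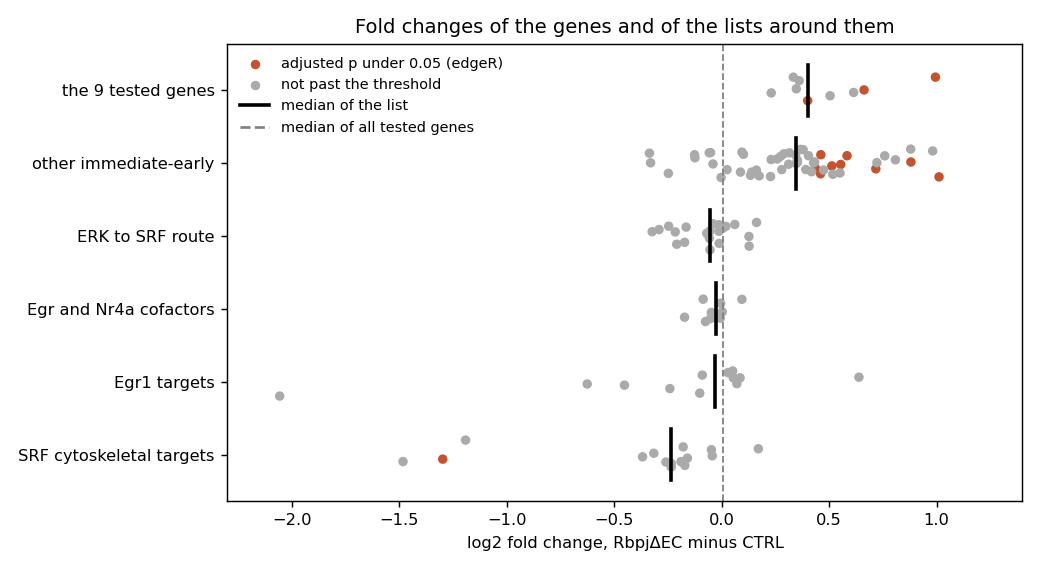
Log2 fold change (RbpjΔEC minus CTRL, horizontal axis) of every tested gene in the 9 tested genes of interest and in 5 lists around them; points are genes, red where the adjusted p was under 0.05 in edgeR's test, black lines are list medians and the dashed line is the median of all tested genes. The medians are 0.40 for the genes of interest, 0.35 for the other immediate-early genes and -0.23 for the cytoskeletal targets of SRF.

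Other measures moved with the libraries as well. Of the macrophage list 7 of 12 genes were tested and none was at 0. Its summed level was 26.4 to 33.3 CPM in CTRL and 33.8 to 39.5 CPM in RbpjΔEC, and without Cd68, the 1 gene called higher, it was 14.2 to 26.4 and 11.2 to 14.5 CPM. Mrc1 was called lower. B cell markers summed to 1.604 to 1.97 CPM in CTRL and 0.290 to 0.947 CPM in RbpjΔEC. T cell markers summed to 0.0946 to 0.623 and 0 to 0.0891 CPM, with Cd3d and Cd3e at 0 in all 6. Podocyte markers summed to 3181 to 3561 CPM in CTRL and 2589 to 2857 CPM in RbpjΔEC (4 of 5 lower, 0 called by edgeR, 1 lower at an unadjusted p under 0.05 and 1 by DESeq2), and tubule markers to 548 to 662 and 303 to 619 CPM. Of the 11 tubule markers 7 were lower and 4 higher (0 called by edgeR, 2 lower at an unadjusted p under 0.05 and 1 by DESeq2). The 4 higher ones, Lrp2, Slc34a1, Cubn and Kap, were highest in RbpjΔEC 3, where Lrp2 had 129 CPM against 29.1 and 29.0 CPM in RbpjΔEC 1 and 2. Stroma markers summed to 4.62 to 7.08 CPM in CTRL and 1.54 to 2.92 CPM in RbpjΔEC, with 3 of 3 tested genes lower and 1, Pdgfra, called. Malat1, Neat1, Meg3 and Snhg11, long noncoding RNAs retained in the nucleus, summed to 18048, 29929 and 19861 CPM in CTRL 1 to 3 and 36709, 28225 and 38145 CPM in RbpjΔEC 1 to 3, so that the groups overlapped. Of these 4 RNAs 3 had a positive log2 fold change (median 0.62, against 0.40 for the 9 tested genes), with 0 calls by edgeR or DESeq2 and 1, Malat1 (0.60), at an unadjusted p under 0.05. CTRL 2, the highest CTRL library for 8 of the 9 tested genes, was the highest CTRL library here too, whereas RbpjΔEC 2, the highest RbpjΔEC library for the 6 Egr, Ier and Srf genes, was the lowest RbpjΔEC library here. Mitochondrially encoded genes held 6.48 to 7.17% of counts in CTRL and 5.40 to 6.64% in RbpjΔEC. The part of each of these measures in the higher Egr1, Egr3 and Ier2 was not tested.

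Among 10430 other genes with a mean of at least 5 CPM, the mean log2 profile of the 9 tested genes over the 6 libraries was most closely followed by Cyb5d1 (Pearson r = 0.999), Taf1d (0.996), Cdk12 (0.993), Tomm34 (0.993), Stk11ip (0.993), Fbxl18 (0.992), Tyms (0.991) and Atf3 (0.990). Taf1d encodes a subunit of the RNA polymerase I initiation factor, Cdk12 a kinase of elongating RNA polymerase II, Tyms thymidylate synthase and Atf3 a stress-induced transcription factor that is itself an immediate-early gene. With group means taken out of both, the highest values were those of Naa15 (0.997), Zgpat (0.997), Cyb5d1 (0.996) and Arid2 (0.995). These are correlations over 6 libraries chosen as the highest of many, and they share the same libraries and scaling.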

How the data were processed

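The deposited file holds counts per gene for 6 libraries, 1 per mouse. The authors made these counts with nf-core/rnaseq 1.4.2 on GRCm38.p6 with GENCODE M25; the submitters' processing notes name Trim Galore 0.6.4, STAR 2.6.1d and featureCounts (Subread 1.6.4). Libraries were stranded total RNA, pooled for 1 sequencing run. Groups came from the sample titles, and no column was left unused.

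In R 4.3.3, edgeR 4.0.16 (TMM factors, filterByExpr, estimateDisp, robust glmQLFit, glmQLFTest) compared 3 RbpjΔEC with 3 CTRL libraries over 18438 genes, with Benjamini-Hochberg adjustment and a threshold of 0.05. CPM are scaled by TMM factors. Standard errors and 95% intervals were derived from the fitted fold change, the F statistic and its degrees of freedom. Log2 CPM used a prior count of 2. The fit was tested on simulated counts. DESeq2 1.42.0 without outlier or independent filtering was an alternative on the same genes. Counts of 3 were taken as the floor, which covers counting error only. No pair of libraries within a group had identical counts.

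Positions and exonic lengths came from GENCODE M21 (GRCm38), where 55141 of the 55401 listed identifiers were found, and may differ from M25. Promoter windows came from RefSeq (GRCm38.p6).

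The 10 genes and the lists were chosen with earlier results of these data known. Named were all 10 genes, in each pathway list (not the cell type markers) the genes past the threshold (at most 5 by p, or the 2 with the smallest p where none passed), Rbpj and Hey1, and the 8 and 4 genes with the most similar profiles. Egr4, Cd68, Mrc1, Cd3d, Cd3e, Pdgfra, Myh11, Rgs5, Cnn1, Myl9, Tagln, the 4 tubule genes and the 4 nuclear RNAs were named after their values were seen. Alternatives changed the scaling, the low-count filter, the test, the dispersion fit, the replicate number as a block and each library in turn.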

Additional observations from a re-analysis of the deposited data

How the results depend on the processing

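Each of the 9 tested genes kept a positive log2 fold change under all 13 alternatives (117 of 117 values), while 10 values lost the threshold and 14 gained it. The alternatives reuse the same 6 libraries, so these values are not independent. For the 7 genes whose groups did not overlap, leaving out a library could hardly turn the sign, and the count of signs is a description. The fit without a filter on low counts tested 38324 genes in place of 18438, with an all-gene median of -0.09. Its adjusted p for Egr1 was 3.1e-16 (edgeR), against 0.00650 with the filter, at log2 fold changes of 0.67 and 0.66. Of the 14 gained values 4 came from that fit and 4 from DESeq2. Without the filter the number of genes past the threshold was 1436 in all, 7 of the 10 genes of interest, 24 other immediate-early genes and 11 genes of the routes around them. With DESeq2 these numbers were 944, 7, 18 and 10. With the replicate number as a block they were 344, 4, 16 and 2. Same-numbered libraries did not deviate together (correlations 0.0054 to 0.023), and no library correlated best with its own number. Leaving out 1 library in turn gave 21 to 700 genes in all, 0 to 6 of the genes of interest, 1 to 16 other immediate-early genes and 0 to 4 genes of the routes. Fewer libraries are part of that construction, and beyond it the cause was not tested. The call of Srf was gained with library size alone (adjusted p = 0.0386, edgeR), under which the all-gene median was 0.05 in place of 0.01 and the calls were 159 higher and 81 lower in place of 106 and 103. Egr2 passed the filter in 4 of the 6 fits that left out a library and was called in none.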

Other observations

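Ratios between pairs of these genes within a library, chosen after the values were seen, did not separate the groups. Nr4a1 stood to Egr1 at 0.184 ± 0.0415 (SD, n = 3) in CTRL and 0.152 ± 0.0474 (SD, n = 3) in RbpjΔEC, as a ratio of CPM (exact permutation test on log2 ratios, two-sided, p = 0.5). Egr3 stood to Egr1 at 0.0236 ± 0.00493 and 0.0302 ± 0.00210 (SD, n = 3 each, exact p = 0.2), and Ier5 to Ier2 at 1.70 ± 0.148 and 1.64 ± 0.156 (SD, n = 3 each, exact p = 0.7). Adjusted over the 3 ratios, p was 0.7, 0.6 and 0.7, and 0.1 is the smallest unadjusted p that 3 libraries against 3 allow.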
